A study of Mus musculus with 4 samples.

Results

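The natural killer gene complex of the mouse is a run of C-type lectin-like receptor genes on chromosome 6. It was examined here as 48 protein-coding genes with symbols starting Klr or Clec that lie between 122 and 131.5 Mb (mm10), of 21883 protein-coding genes on the main chromosomes. The members were chosen by symbol and position, and the complex was singled out with its peak coverage in these same libraries already known. Its coverage is therefore given as a description, with no test. H3K9me3, trimethylation of lysine 9 of histone H3, marks silenced chromatin. It was mapped by sequencing of native chromatin immunoprecipitates from mouse muscle stem cells that had been isolated by magnetic sorting and cultured. The control culture (genotype label Setdb1lox/lox;Pax7GakaCreERT2) received Ethanol, and the deleted culture (genotype label Setdb1lox/lox;Pax7GakaCreERT3) received 4-Hydroxytamoxifen, each for 72 h. Both cultures thus carried loxP-flanked Setdb1, the gene of an H3K9 methyltransferase, and a drug-inducible Cre driven by Pax7, which acts only in cells that express Pax7. The labels give the final digit of the genotype differently in the 2 cultures without explanation. There was 1 H3K9me3 library per condition, so the spread between cultures is unknown and no difference below has a replicate check.

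Natural killer cells weigh activating against inhibiting signals before they kill a target cell, and many of their receptors are encoded in this complex. Klra genes encode the Ly49 receptors, which bind class I major histocompatibility molecules and have expanded into a tandem array in rodents. Klrb genes encode NKR-P1 receptors, and several Clec2 genes beside them encode their ligands. Klrd1 (CD94) pairs with the NKG2 proteins of the Klrc genes, and Klrk1 encodes the activating receptor NKG2D. Clec4 genes and the cluster around Clec7a (Dectin-1) encode pattern-recognition and related receptors of myeloid cells. Muscle stem cells are not known to use these receptors, so the mark is described here over lymphoid and myeloid genes in a cell of another lineage.

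The list of control peaks held 105709 peaks on the main chromosomes and that of the deleted culture 113503, of which 10030 and 7220 were on chromosome 6. Sequencing depth is unknown, and its part in the differences below was not tested. Over the 19535 protein-coding genes of the other autosomes mean coverage was 2.91% in the control and 3.04% after deletion. Covered percent below is the share of a gene window, the gene plus 5 kb on both sides, that lies under peaks. The window of Setdb1 itself went from 0.888% with the control to 0%, and peaks of this mark cannot show whether the gene was cut. Of 14 muscle stem cell markers, 12 (85.7%) had no peak in either list, among them Pax7, Myf5, Myod1 and Des. Of 8 markers of other cells in muscle, 6 (75%) had none, and Adgre1 had the highest coverage, 20.1% and 19.9%. Among the protein-coding genes of the other autosomes 64.1% had no peak in either list. Peaks of this mark do not measure expression, so these values do not check the cell type.

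Promoter sequences are shown for 6 members because similar and unrelated start sites in the complex differed in whether a peak lay over them. RefSeq (GRCm38.p6) gave a start site for 41 of the 48 members. Each line gives the 120 bases just before the start site, 5′ to 3′ along the gene's own strand, which is the minus strand for all 6. The dinucleotide CG, searched as the letters CG, is in capitals.
Klra8 (chr6:130129899-130130018, under a peak in both lists): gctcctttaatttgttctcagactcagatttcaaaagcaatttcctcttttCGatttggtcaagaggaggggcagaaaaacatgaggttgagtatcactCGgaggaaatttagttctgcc
Klra4 (chr6:130067272-130067391, under no peak): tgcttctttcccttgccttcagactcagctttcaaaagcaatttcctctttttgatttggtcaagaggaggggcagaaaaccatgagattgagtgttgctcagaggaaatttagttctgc
Klra10 (chr6:130281929-130282048, under a control peak only): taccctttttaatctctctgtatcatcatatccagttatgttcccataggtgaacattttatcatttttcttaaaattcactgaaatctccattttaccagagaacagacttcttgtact
Klrh1 (chr6:129784271-129784390, under a control peak only): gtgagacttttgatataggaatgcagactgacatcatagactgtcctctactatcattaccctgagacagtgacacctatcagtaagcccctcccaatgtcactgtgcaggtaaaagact
Klrk1 (chr6:129623865-129623984, under no peak): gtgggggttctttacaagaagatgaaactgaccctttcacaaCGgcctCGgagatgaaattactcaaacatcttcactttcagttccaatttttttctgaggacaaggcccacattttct
Clec7a (chr6:129472786-129472905, under no peak): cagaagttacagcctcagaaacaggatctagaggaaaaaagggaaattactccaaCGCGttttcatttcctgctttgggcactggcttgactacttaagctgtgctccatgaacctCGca

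The 300-base promoter windows of Klra8 and Klra4, 250 bases before to 50 after the start, were 86.1% identical, the highest of the 55 pairs among 11 Klra promoters. The median Klra pair was 53.0% identical, and 2 pairs reached 80%, the other being Klra3 and Klra9 at 85.0%. Among the 7 Clec4 promoters the highest pair stood at 52.8%. Klra8 and Klra4 had different peak calls: the Klra8 window was fully covered in both lists (300 of 300 bases) and the Klra4 window at 0 bases. How the authors placed reads that match several copies was not given in the sources used here. Values of single genes are therefore uncertain where copies are alike, in Klra and in the other subfamilies. The promoters of Clec2e and Clec2h were 79.6% identical and those of Klrc2 and Klrc3 75.1%, and Klri2 had no start site to compare. The strain of the mice was not given either, and the number of Klra genes differs between mouse strains while the reads were placed on mm10.

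Members had promoters poor in CG. The median was 2 CG per 300 bases in the 41 members, against 13 in 17491 protein-coding genes and 7 in the 32851 promoters of the whole table. At least 1 CG was present in 37 of the 41 (90.2%), against 94.6% of all promoters in the table. None of the 41 held 10 or more, against 57.2% of the protein-coding genes. Counts ran from 0 in Klra4, Klra7, Clec4d and Clec2h to 7 in Klrb1b and Clec2m.

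A peak lay over the promoter window of 9 of the 41 members (22.0%) in the control and of 4 (9.76%) after deletion. The other protein-coding genes of chromosome 6 had 38 of 911 (4.17%) and 17 (1.87%). The 4 promoters under peaks in both lists were those of Clec4b1, Klra5, Klra6 and Klra8. The 5 covered in the control list only were those of Clec4b2, Klrh1, Klra9, Klra10 and Klra1. No member promoter was covered in the deleted list only, against 10 of the 911 other genes. No promoter of a Klrb, Clec2 or Klrc gene, or of Klre1, Klrk1 or Clec7a, was covered in either list.

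Among the members the mark was densest over 2 groups of genes, the Clec4 genes on one side and the Klrh, Klri and Klra genes on the other. The Klrb and Clec2 genes, the Clec7a cluster and the CD94 and NKG2 genes lie between them and had lower means, though single genes such as Klrb1c overlapped the dense groups. Coverage of the 48 windows averaged 20.0% for the control and 9.50% for the deleted culture, with medians of 15.6% and 5.49%. The 1078 other protein-coding genes of chromosome 6 averaged 4.75% and 2.27%, with a median of 0% in both, so the members were more heavily covered than their chromosome in both lists. Their coverage is what singled them out, and this is a description. Of the members, 34 were covered less in the deleted list, 3 more and 11 at 0% in both. Of the 1078 other genes of the chromosome, 391 were covered less, 91 more and 596 at 0% in both. Coverage exceeded 25% for 19 members with control peaks and for 5 with those of the deleted culture. The order of the members was similar in both, with a Pearson r of 0.827 and a Spearman rho of 0.888 over the 48 windows, of which 14 overlap another member's window and share peaks with it.

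**Figure D1:**
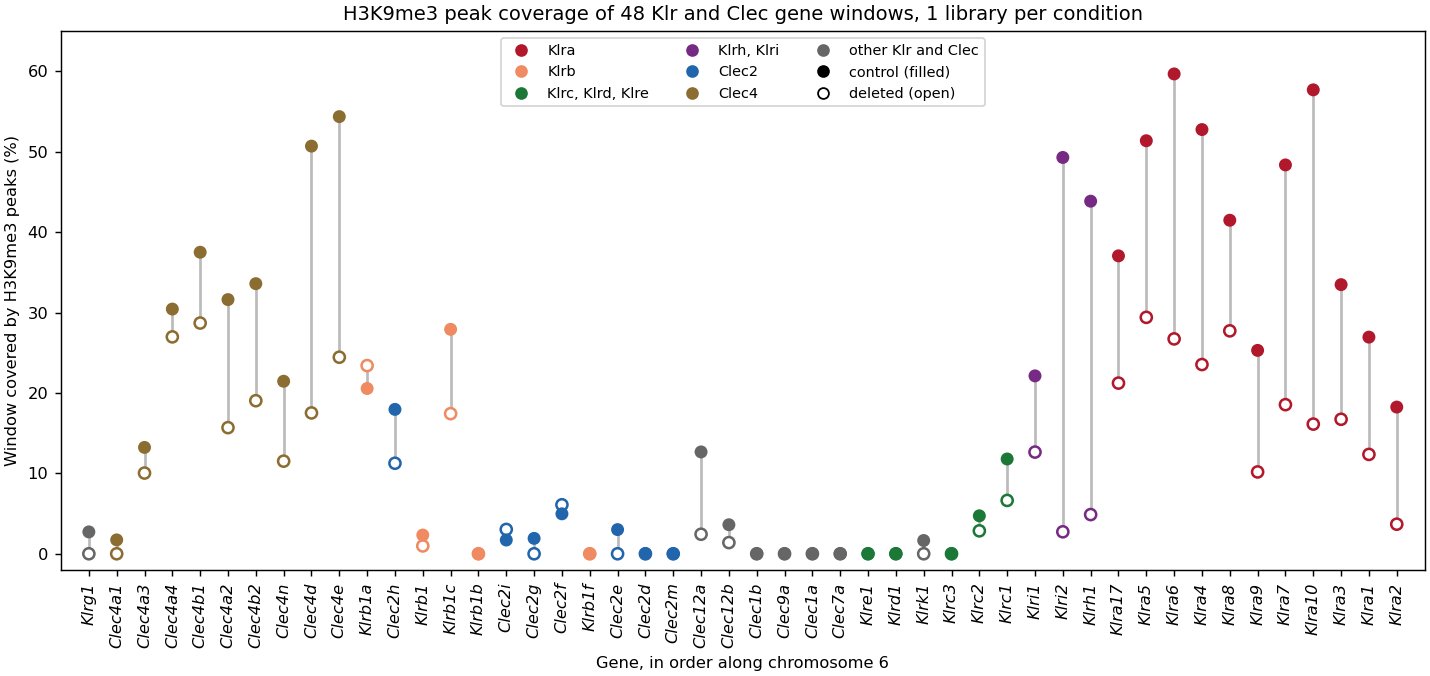
Covered percent of each of the 48 gene windows (y axis) in order along chromosome 6 (x axis), with the control list as filled and the deleted list as open circles and subfamilies in colour; a single filled circle at 0 means 0% in both. The Clec4 genes on the left and the Klrh, Klri and Klra genes on the right stand high in the control list and lower in the deleted list, and of the genes between them most lie below 10% in both, with Klrb1c, Klrb1a, Clec2h, Clec12a and Klrc1 above that in the control list.

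The ratio between the lists, unlike the level, was close to that of the chromosome when all peaks were used. Peaks covered 272.7 kb of the merged member windows in the control and 132.9 kb after deletion, a ratio of deleted to control of 0.488 (log2 -1.04). The rest of chromosome 6 had 15055 kb and 7597 kb, a ratio of 0.505 (log2 -0.99). The 2 log2 ratios differed by -0.05, and this difference changed sign with the window or with the part of the chromosome it was set against. It was -0.69 when only peaks with a −log10 q of 2 or more were used, the lowest value of the settings in which it could be computed. At 3 or more the member windows held 8.78 kb under control peaks and 0 kb under deleted-list peaks, so no log2 ratio could be given. A member was called lower when its mean covered percent over both lists was at least 5 and its deleted-to-control ratio was at most 0.5, and higher when that ratio was at least 2. Of the 48 members 28 reached that mean, and 14 of the 28 (50%) were called lower and 0 higher. Among the other protein-coding genes of chromosome 6, 83 of 159 (52.2%) were called lower and 7 (4.40%) higher. On the other autosomes 350 of 2420 (14.5%) were called lower and 435 (18.0%) higher. The share of members called lower was thus near that of their chromosome. With peaks of a −log10 q of 2 or more it was 15 of 17 members, against 36 of 51 other genes (70.6%). Just inside the mean limit lay Clec2f with 5.53% and just outside it Klrc2 with 3.79%. Just inside the ratio limit lay Klra3 with 0.500 and just outside it Clec4n with 0.537.

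**Figure D2:**
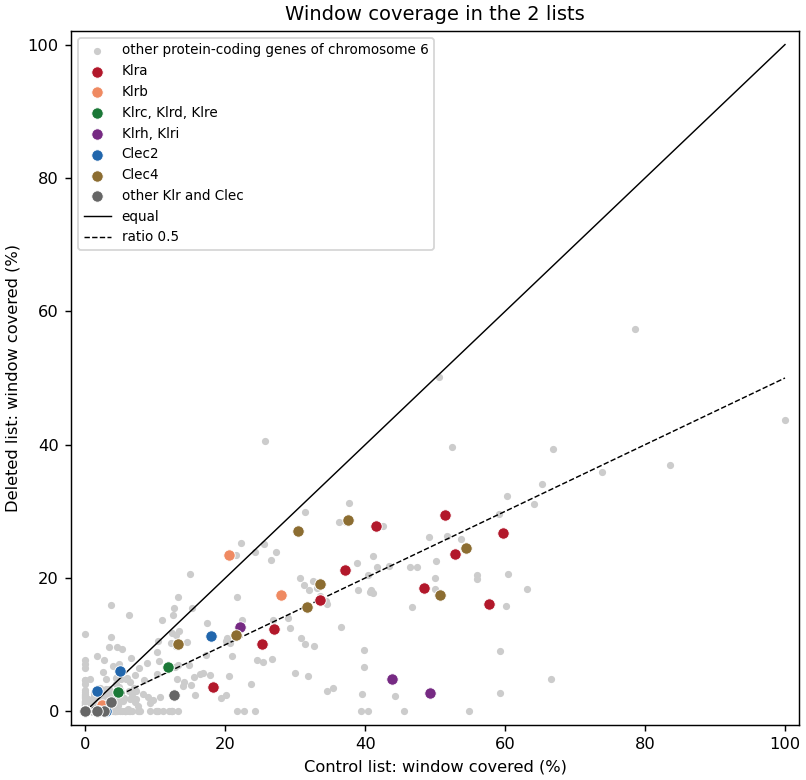
Covered percent of gene windows in the control list (x axis) and the deleted list (y axis) for the 48 members, coloured by subfamily, and the 1078 other protein-coding genes of chromosome 6 in grey; the solid line marks equal values and the dashed line a ratio of 0.5. Most covered members lie around the dashed line among the grey genes, Klri2 and Klrh1 lie far below it, and Klrb1a lies just above the solid line.

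The Klra genes, encoding the Ly49 receptors, carried the most of the mark. All 11 were covered less in the deleted list, with means of 41.1% and 18.8% and a median ratio of 0.448. Of the 11, 8 (72.7%) were called lower, against 52.2% of the other protein-coding genes of chromosome 6 that reached the mean limit. On the same chromosome 22 of 33 Vmn1r pheromone receptor genes (66.7%) and 16 of 25 Tas2r bitter taste receptor genes (64%) at that limit were called lower. Klra6 (Ly49F) had the highest control coverage of any member, 59.7%, and 26.7% after deletion. Klra10 (Ly49J) had the largest difference of its subfamily, with 57.7% and 16.1%. Its window held 6 control peaks and 5 deleted-list peaks. The control peaks there were 890 to 3504 bp wide and the deleted-list peaks 578 to 1201 bp. No deleted-list peak overlapped the widest of these control peaks, over the start site (130281886 to 130285389), or the narrowest (130274483 to 130275372). Klra8, which encodes the activating receptor Ly49H that recognises mouse cytomegalovirus, was covered at 41.5% and 27.7%, a ratio of 0.668 and the highest of the 11, though it was 4.64 points higher in the deleted list when only the stronger peaks of each list, those from its median fold upwards, were used. Klra4, encoding the activating Ly49D, stood at 52.8% and 23.5%.

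The inhibitory receptor genes Klra1 (Ly49A), Klra3 (Ly49C) and Klra7 (Ly49G) stood at 26.9% and 12.4%, at 33.5% and 16.7%, and at 48.4% and 18.5%. Klra5 (Ly49E) was covered at 51.4% and 29.4%, the latter being the highest value of any member in the deleted list. Klra9 (Ly49I) had 25.3% and 10.2%. Klra17 (Ly49Q) at one end of the array had 37.1% and 21.2%. Klra2 (Ly49B) lies apart from the array (131198970 to 131247716, against an end of the array at 130386874) and had the lowest control coverage of the subfamily, 18.2%, and 3.68% after deletion. One control peak of 10455 bp, the widest in any member window, made up nearly all of that coverage, and in its place the deleted list had 3 peaks of 272 to 1123 bp. All 11 Klra genes lie on the minus strand. The array from Klra17 to Klra1, 555.7 kb long, was covered at 41.3% and 19.6% over its whole length, spaces between genes included, by 114 and 93 peaks with median widths of 1493 and 969 bp.

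Klri2 and Klrh1, beside the Klra array, had the lowest ratios of the 28 members that reached the mean limit. Klri2, which encodes a partner of KLRE1, was covered at 49.3% and 2.73%, a ratio of 0.0554, and Klrh1 at 43.9% and 4.88%, a ratio of 0.111. In points the difference of Klri2 was the largest of all members, followed by that of Klra10. Over the 55.2 kb from one gene to the other, control peaks covered 51.8% and deleted-list peaks 5.95%. The Klri2 window held 4 control peaks, the widest of 5887 bp inside the gene, and 1 deleted-list peak of 586 bp within the bounds of that control peak. The Klrh1 window held 7 control peaks and 4 deleted-list peaks, of which 1 only touched its edge. The control peak at the far end of Klrh1 from its start site (129766820 to 129768775) had an authors' fold enrichment of 3.43 and no partner in the deleted list. Klri1, the paralog of Klri2 next to it, differed less, with 22.1% and 12.6%. Merged windows of these 3 genes held 29.6 and 6.30 kb under peaks, a ratio of 0.213, and 13.5% of the control bases were also covered in the deleted list, against 30.7% for Klra and 26.1% for the rest of chromosome 6. Such values were not limited to the complex. Among bitter taste receptor genes elsewhere on the chromosome, Tas2r124 stood at 66.5% and 4.82% and Tas2r102 at 59.2% and 2.80%.

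**Figure D3:**
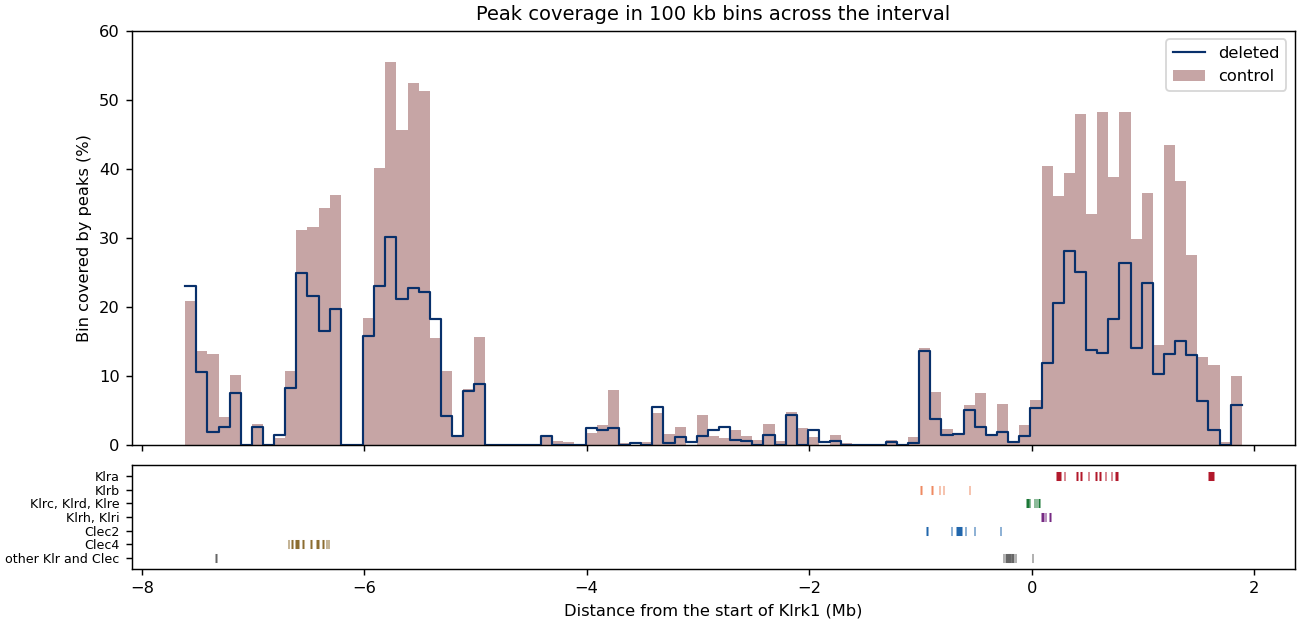
Upper panel: covered percent of 100 kb bins (y axis) against distance from the start of Klrk1 in Mb (x axis), with control as bars and deleted as a line; lower panel: positions of the members by subfamily. Both lists rise at the Clec4 genes, again at the Vmn2r genes to their right, and at the Klrh, Klri and Klra genes, and are low between the Vmn2r genes and Klrb1a.

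The Clec4 genes, the other dense block, were all covered less in the deleted list, with means of 30.5% and 17.1% over 9 genes. Of 8 that reached the mean limit 3 (37.5%) were called lower, against 52.2% of the other protein-coding genes of chromosome 6. Clec4e, encoding Mincle, a receptor for mycobacterial glycolipid, had the highest control coverage of the subfamily, with 54.4% and 24.5%. Clec4d, encoding its partner MCL, had the largest difference, with 50.7% and 17.5%. The third gene called lower, Clec4a2 (DCIR), had 31.6% and 15.7%. Clec4n, encoding the fungal mannan receptor Dectin-2, stood at 21.5% and 11.5%, and Clec4b2 at 33.6% and 19.04%. For Clec4n the direction turned at a −log10 q of 2 or more, where it was 2.46 points higher in the deleted list. The genes nearer the other end differed least. Clec4a4 had 30.4% and 27.0%, but over the gene alone it was 4.18 points higher in the deleted list. Clec4b1 had 37.5% and 28.7%, and Clec4a3 had 13.2% and 10.0%. Clec4a1, outermost in the block, was almost bare, with 1.73% and 0%, and with 20 kb on both sides it was 0.913 points higher in the deleted list.

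The Klrb and Clec2 genes, receptors and ligands interleaved over 577.3 kb, carried few peaks and differed less between the lists. That stretch was covered at 6.69% and 4.93%. Klrb1c, which encodes the marker NK1.1, had the highest control coverage of its subfamily, with 27.9% and 17.4%, though at a −log10 q of 2 or more it was 4.08 points higher in the deleted list. Klrb1a had 20.6% and 23.4% and was 1 of the 3 members covered more in the deleted list, though lower there with peaks joined within 5 kb (-9.12 points) or at a −log10 q of at least 2, and of at least 3 (-14.4 points). Its control peaks were 3, the strongest of 3425 bp with a −log10 q of 3.12. Its 1 deleted-list peak was 5550 bp wide, the widest in any member window of that list, with a −log10 q of 1.98. Klrb1 stood at 2.33% and 0.974%, and Klrb1b and Klrb1f at 0% in both. Clec2h had 18.0% and 11.3%, the highest of the Clec2 genes. Its control peak of 3402 bp (128667264 to 128670665) had the highest fold enrichment in any member window of the control list, 3.51. A deleted-list peak of 2815 bp lay over almost the same bases (128667187 to 128670001) with a fold of 3.12 within its own list. Clec2f (4.97% and 6.10%) and Clec2i (1.71% and 3.03%) were the other two members covered more in the deleted list, but both turned, Clec2f over the gene alone (-6.97 points) and Clec2i with 20 kb on both sides (-0.52 points). Clec2g and Clec2e had 1.92% and 3.01% with control peaks and 0% after deletion. Clec2d, which encodes Clr-b, the ligand of an inhibitory NKR-P1 receptor, had no peak in either list, nor did Clec2m.

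From Clec2m to Klrc3, 321.3 kb with 11 members, peaks covered 3.21% and 1.02%. Clec1b, Clec9a, Clec1a and Clec7a, receptors of platelets, dendritic cells and macrophages among others, were without any peak in both lists, as were Klre1, Klrd1 and Klrc3. A span of 103.2 kb (129379131 to 129482303) that holds the first 4 of these genes whole was free of peaks in both lists. A second of 109.4 kb (129505567 to 129614941) held Klre1 and Klrd1 with the non-lectin genes Tmem52b and Gabarapl1. Klrk1, encoding NKG2D, had 1 control peak (1.65%) and none after deletion. Clec12a, an inhibitory myeloid receptor gene, was the exception, with 12.7% and 2.43%, and its 1 control peak lay in the flank and not in the gene. Clec12b had 3.61% and 1.39%. Klrg1, an inhibitory receptor gene far from the others, had 2.72% and 0%.

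Coverage increased again within the NKG2 genes. Klrc3 had 0% in both lists, Klrc2 4.72% and 2.85%, and Klrc1, which encodes the inhibitory NKG2A, 11.8% and 6.64%. Over the gene alone both turned, with Klrc2 5.42 points and Klrc1 2.78 points higher in the deleted list, as did Klrc1 with peaks joined within 5 kb (2.90 points). Control coverage of Klri1, the next gene along, was 22.1%, and that of Klri2 49.3%. The control list thus turned from bare to dense within a few genes. In the deleted list Klri1 had 12.6%, Klri2 and Klrh1 less than that, and Klra17, the next member, 21.2%.

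**Figure D4:**
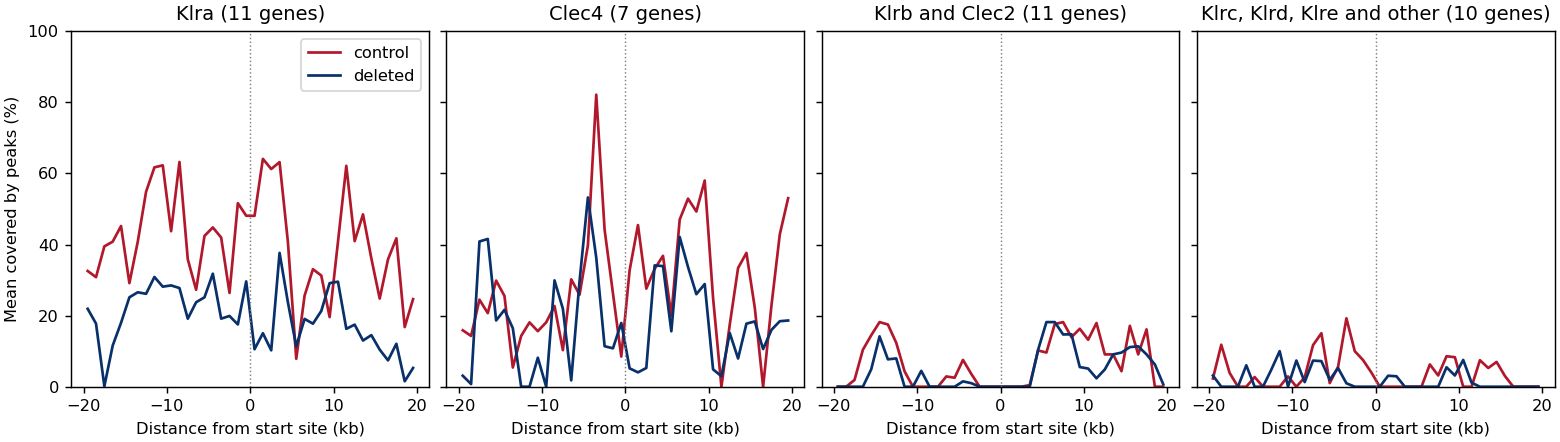
Mean covered percent in 1 kb steps (y axis) from 20 kb before to 20 kb after the start site (x axis, positive in the direction of the gene), control in red and deleted in blue, for the members with a start site in RefSeq other than Klrh1 and Klri1. Around Klra starts the control list is above the deleted list in most steps, and no peak covers the first kb after the start of the 21 genes in the 2 right panels.

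Around the start sites the Klra genes were covered on both sides. The 20 kb before the start averaged 43.2% and 22.4%, and the 20 kb after it 38.4% and 16.2%. In the first kb after the start the means over the 11 genes were 48.1% and 10.55%. The kb before the start had 48.1% and 29.6%. For 7 Clec4 genes the first kb after the start stood at 32.8% and 5.17%. Their kb before the start went the other way, with 8.49% and 17.9%. The whole 20 kb after the start averaged 32.9% and 18.0% for these 7 genes. The 11 Klrb and Clec2 genes had 0% in the first kb after the start in both lists, as had 10 of the remaining members. These means rest on few genes, and several steps hold a peak of 1 or 2 of them.

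In the member windows the control list had 163 peaks and the deleted list 120. Their median widths were 1279 and 912.5 bp, against 1047 and 797.5 bp on the rest of chromosome 6. Peaks of 3 kb or more numbered 31 and 4, against 1187 of 9867 control peaks and 306 of 7100 deleted-list peaks on the rest of the chromosome. The median −log10 q was 1.70 and 1.52, against 1.66 and 1.45 on the rest of the chromosome. A −log10 q of 2 was reached by 40 of the control peaks (24.5%) and 14 of the deleted-list peaks (11.7%), against 22.2% and 9.90% on the rest. A peak of that strength lay in the windows of 23 members for the control and 12 after deletion, and one of 3 or more in 3 windows (Klrb1a, Clec2h and Klrh1) and in none. No peak of the deleted list overlapped 76 of the control peaks (46.6%, 95% Wilson interval 39.1 to 54.3%), against 55.5% (54.5 to 56.5%) on the rest of the chromosome. No control peak overlapped 24 of the deleted-list peaks (20.0%, 13.8 to 28.0%), against 33.5% (32.5 to 34.6%). The intervals cover counting error only, and a partner is met more easily where the other list covers more bases, as it does here. The extent of that effect was not tested. In bases, 31.4% of what control peaks covered in the member windows was also covered in the deleted list, and 47.2 kb were covered in the deleted list only. Among the deleted-list peaks of highest fold were one beside Clec4a2 (123118014 to 123119811, fold 3.27), one in Klra17 (129865519 to 129866853, 3.20) and one in Klra10 (130271877 to 130272454, 3.08), of which the last had no control partner. Each fold is the authors' own for that peak, and serves only to rank peaks of 1 list.

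**Figure D5:**
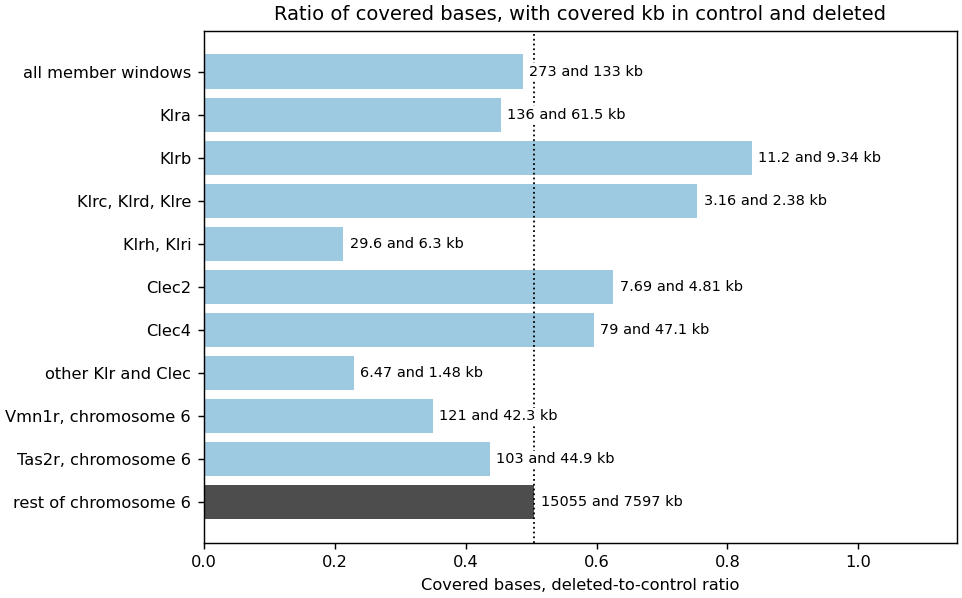
Deleted-to-control ratio of bases under peaks (x axis) in the merged windows of all members, of each subfamily, of 2 other receptor families of chromosome 6 and in the rest of the chromosome (y axis), with covered kb in each list printed beside the bar and the dotted line at 0.505 for the rest of the chromosome. All members together and Klra lie just below the line, Clec4 above it, and Klrh and Klri far below it. The other Klr and Clec genes also lie far below it (0.229), on few covered bases. Klrb, Clec2 and the Klrc, Klrd and Klre genes lie above it, on few covered bases as well.

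Other genes of the interval and of other receptor families had lower means after deletion, and some of them were covered more. The 115 non-lectin protein-coding neighbours averaged 5.68% and 2.98%, with 32 covered less, 9 more and 74 at 0% in both lists. Of 19 that reached the mean limit 7 (36.8%) were called lower and 1, Rimklb (4.51% and 9.67%), higher. Of the 159 chromosome 6 genes outside the complex that reached the mean limit, these neighbours included, 52.2% were called lower and 4.40% higher. The 9 Vmn2r genes among them, pheromone receptors between the Clec4 genes and the rest of the complex, averaged 35.2% and 18.9%. Vmn2r25 (63.1% and 18.4%) had the largest difference of all the neighbours, and after it LOC115490339 (49.97% and 18.4%). Of 95 bins of 100 kb across the interval, 69 were covered less in the deleted list, 13 more and 13 equally. The 22 bins covered at 25% or more in the control list were all covered less in the deleted list. Choosing bins by their control coverage favours a fall in advance, so this is a description only. The largest losses were over Klra7 and Klra10 (48.3% and 13.4%), in a bin without protein-coding genes beyond Klra1 (130800001 to 130900000, 43.6% and 13.3%), over Vmn2r26 (52.5% and 22.8%) and Vmn2r27 (51.3% and 22.2%), and over Klri1, Klri2 and Klrh1 (40.4% and 11.96%). The largest gain, over part of Vmn2r27, was 2.68 points (15.6% and 18.3%). The other 4 bins of largest gain differed by 2.25 points or less. Merged windows of the 51 Vmn1r pheromone receptor genes of chromosome 6 had a deleted-to-control ratio of 0.350, and those of its 33 Tas2r bitter taste receptor genes 0.437, both below the 0.488 of the members. Of these genes 36 Vmn1r and 20 Tas2r were covered less in the deleted list. Those covered more were 8 Vmn1r and 6 Tas2r, among them Vmn1r34 (3.71% and 11.2%) and Tas2r125 (25.7% and 40.5%).

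Signalling partners of these receptors had a peak about as often as other genes, at lower mean coverage. Of 30 genes for signalling partners and effectors of natural killer cells, 1 of them (Ptpn6) on chromosome 6, 19 (63.3%) had no peak in either list, against 64.1% of the protein-coding genes of the other autosomes. They include Tyrobp and Hcst, the adaptors of activating Klr receptors, and Prf1, Gzmb and Ifng. The means of the 30 were 1.35% and 1.27%, against 2.91% and 3.04% on the other autosomes, and of 2 that reached the mean limit none was called. The largest differences were Sh2d1b1 (12.7% and 6.88%) and Zap70, a T-cell kinase gene (1.92% and 5.98%). Of 20 ligand symbols 15 matched a gene, with means of 2.03% and 1.88% and none called. H2-D1 and H2-T23, which encode class I molecules read by Ly49 and NKG2 receptors, had no peak, and Cd48 stood at 20.0% and 16.6%. H60c, a ligand gene of NKG2D, stood at 5.00% and 9.84%. The list holds 2 members of the complex, Clec2d and Clec2g.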

How the data were processed

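Each condition had 1 H3K9me3 library and 1 input library. The analysis used 1 deposited list of broad peaks per condition and no input library. The submitters' processing notes name BWA 0.7.17-r1188, MACS2, ChIPseeker 1.30.3 and mm10. Caller version and settings, use of the inputs and pooling are not given in the sources used here. The authors' columns for a peak are its fold enrichment (a linear ratio), −log10 p and −log10 q. A deposited display score was not used. Peak names give another replicate number than the sample titles, and lists were matched to samples by mark and condition only.

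Of the peaks, 155 control and 185 deleted-list peaks on unplaced scaffolds were set aside. Gene positions came from RefSeq (GRCm38.p6, the assembly of mm10). Coverage was computed with Python 3.11.15, numpy 2.4.6 and pandas 2.3.3 and tested on simulated peaks, and promoters were aligned globally with Biopython 1.88. Shares of peaks carry 95% Wilson intervals (scipy 1.17.1). A partner peak overlaps by at least 1 bp. With 1 library per condition no p-value was computed.

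The members, lists and limits were chosen with earlier results of these data known. Named genes were the members of highest coverage, largest fall and largest rise in each subfamily, 9 genes of known role, at most 2 falls and 2 rises of each other list, the 5 bins of largest loss and gain and the 5 peaks of highest fold. Values of the other members, the stretches between named genes and genes without peaks were added after their values were seen. Alternatives covered peak threshold, list size, joining, windows, call limits and the overlap rule.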

Additional observations from a re-analysis of the deposited data

Results flagged for a closer look

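The complex also holds 5 genes of these families that are annotated as pseudogenes and enter no comparison of the report. The window of Klra11-ps, between Klra4 and Klra8, was covered at 21.1% in the deleted list and 16.9% in the control list, a signal outside the main measurement that was above its level in the control. The others were not higher in the deleted list, with Klra13-ps at 18.7% against 46.0% in the control list, Klra14-ps at 10.0% against 29.0%, Klrb1-ps1 at 7.14% against 8.82% and Clec2j at 0% in both. With 1 library per condition these differences were not tested.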

How the results depend on the processing

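Of 52 alternative values of 7 results, 18 were labelled as the same, 32 as moved and 2 as turned in sign. The rule differed by kind of result. A count was the same within 1.5 times, and a share of peaks when inside the Wilson interval of the reported share. A mean difference or log2 ratio was the same only when unchanged, so small shifts of these count as moved. The mean difference of the members, -10.5 points, was -6.79 at −log10 q of 2 or more, -0.732 at 3 or more, -9.68 with peaks at or above the median fold, -11.1 at the same number of peaks, -19.7 with peaks joined within 5 kb, -11.2 over the gene alone, -10.2 with 20 kb on both sides and -11.1 with 1 value per merged stretch of windows. The count of 14 of 28 members called lower (52.2% of the rest of chromosome 6) was 2 of 2 from a −log10 q of 3 upwards (rest 1 of 5), 22 of 28 with a ratio limit of 1.5 (69.2%), 15 of 17 from a −log10 q of 2 (70.6%), 17 of 27 from the median fold (67.5%), 17 of 28 at the same number of peaks (57.3%), 13 of 29 joined (46.2%), 14 of 25 over the gene alone (51.2%), 13 of 30 with 20 kb (44.4%) and 13 of 25 with a mean limit of 10% (53.4%), and the count called higher was 0 in every setting run. The log2 ratio of covered bases, -1.04, was -2.92 from a −log10 q of 2 upwards, -1.45, -1.15 and -0.96 with peaks at or above the median fold, the same number and joined peaks, and -1.07 and -0.93 over the gene alone and with 20 kb. Its difference from the rest of chromosome 6, -0.0498, turned to 0.061 with 20 kb on both sides and to 0.0336 against the windows of other genes. That difference stood at -0.691 for peaks with a −log10 q of 2 and above, -0.0503 at or above the median fold, -0.065 at the same number, -0.112 joined and -0.0838 over the gene alone. The share of control peaks without a partner, 46.6%, was 85.0% from a −log10 q of 2 and 100% from 3, 67.3% at or above the median fold, 20.0% joined, 75.5% when 50% of the peak had to overlap and 9.82% within 5 kb. For deleted-list peaks, at 20.0%, the values were 57.1%, 36.4%, 8.20%, 32.5% and 1.67% at −log10 q of 2 or more, at or above the median fold, joined, at 50% overlap and within 5 kb. At 3 or more no deleted-list peak was left in the windows, so neither its share nor a log2 ratio could be given.

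Fewer peaks remain under a stricter threshold, and joined peaks are longer. The cause of the other moves was not tested. Single members turned sign in 13 of 336 values, over 10 members, none of them called lower. They are given beside each member in the report. The comparisons with 1 value per stretch and with the windows of other genes were chosen after seeing the data. No paired analysis was possible because each condition had 1 library, and none could be left out. The unknown depth limits all comparisons of length under peaks.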
